A study of Mus musculus with 43 samples.

Results

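The platelet-derived growth factor (PDGF) genes of the mouse were followed through every treatment of colon organoids and colon fibroblasts. They are the 2 receptor genes Pdgfra and Pdgfrb and the 4 ligand genes Pdgfa, Pdgfb, Pdgfc and Pdgfd, taken by their symbols as 6 of the 52636 genes with a value in both tables. Colonoids came from 3 male mice carrying VilCreERT2, a tamoxifen-inducible Cre driven in the intestinal epithelium, with wild-type Apc (lines M41, M40 and M1). Tumoroids came from 3 VilCreERT2 mice with both Apc alleles floxed (line F11 from a female, lines M3 and M14 from males), so genotype cannot be told apart from the lines and is mixed with sex. The mice of both genotypes were 2 months old and had received tamoxifen. Each organoid line was grown for 6 days in Matrigel in a medium with EGF, Rspondin 1, Noggin and Wnt3a, with DMSO vehicle (Ve), 4 µM regorafenib (R4), 8 µM regorafenib (R8) or 1 µM 5-fluorouracil (5-FU). Primary fibroblasts came from the colon of wild-type C57BL/6 mice (lines M3, M3(2), M1(2) and M11) and were grown for 7 days in medium with fetal bovine serum, with Ve, R4, 10 µM regorafenib (R10, not in line M11), 1 µM autogramin-2 (A1) or both drugs (R4A1). The titles of the 3 tumoroid 5-FU libraries call them colonoids, while their genotype label and library name make them tumoroids. The 5-FU difference of Pdgfb and the count of calls are therefore also given for the colonoids alone. Other differences with 5-FU are pooled over both genotypes. Age and sex are given for fibroblast lines M3 and M3(2), both male and 2 months old. Regorafenib inhibits several kinases, among them the VEGF receptors, PDGFRβ, KIT, RET and RAF. Autogramin-2 inhibits the cholesterol transporter GRAMD1A and thereby autophagy, and 5-FU blocks thymidylate synthesis.

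PDGFs are secreted dimers that make receptor tyrosine kinases on mesenchymal cells pair and phosphorylate each other, which recruits PLCγ1, PI3 kinase, SHP2, SRC and GRB2. PDGF-A and PDGF-C bind PDGFRα, PDGF-B binds both receptors and PDGF-D prefers PDGFRβ. PDGF-A and PDGF-B are cut inside the cell by furin-like convertases, while PDGF-C and PDGF-D leave the cell with a CUB domain that plasminogen activators and matriptase remove. In the gut the epithelium makes PDGF-A and the Pdgfra-expressing mesenchyme below it responds, whereas PDGF-B from endothelium keeps Pdgfrb-expressing pericytes on vessels.

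Values are CP20M, read counts per gene that the authors scaled to 20000000 per library. CP20M is not divided by gene length, so genes are compared with each other only as CP20M per kilobase of merged exons. Library depth ran from 7949947 to 12825873 reads in fibroblasts. In organoids it ran from 512600 reads in colonoid line M41 in R4, where 1 read is worth 39.0 CP20M, to about 19562619 among the 21 libraries whose depth could be estimated (median 14061217), and the other 3 lay above 20000000. Apc, summed over the whole gene and therefore no check of the floxed exon, was 1542 to 4944 CP20M in colonoid libraries and 3813 to 6032 in tumoroid libraries. Epithelial markers marked the organoids, with a median of at least 200 CP20M for 7 of 8, while 10 of 11 fibroblast markers never reached that level and the collagen gene Col1a2 was at 0 in 20 of 24 libraries. Fibroblast cultures carried fibroblast markers, from 174719 to 269333 CP20M for the sum over the list, and their epithelial markers stayed at or below 213 CP20M. Of 11 pericyte and smooth muscle markers, 6 had a median of at least 200 CP20M in the fibroblasts, among them Acta2, Tagln, Mcam and Notch3, while 5 stayed under 200 in every library, the pericyte genes Rgs5, Kcnj8, Abcc9 and Higd1b among them at 39 or less. Endothelial markers were present and summed to 907 to 27411.

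In GRCm38, Pdgfra (ENSMUSG00000029231) spans chr5:75152292-75198215 on the forward strand. Pdgfa (ENSMUSG00000025856) spans chr5:138976014-138997370 and Pdgfb (ENSMUSG00000000489) chr15:79995874-80014977, both on the reverse strand. Pdgfc (ENSMUSG00000028019) at chr3:81036416-81214040 and Pdgfd (ENSMUSG00000032006) at chr9:6168584-6378850 are forward genes. All of these 5 overlap a gene on the opposite strand, among them 6330403L08Rik for Pdgfa, Gm41361 for Pdgfb, Gm16000 for Pdgfc and Ddi1 for Pdgfd. Whether reads were counted by strand is not given in the sources used here, so reads of such partners cannot be told apart from those of the gene.

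The promoters of Pdgfra, Pdgfc and Pdgfd are shown because Pdgfra fell in fibroblasts with regorafenib, Pdgfc rose in organoids and Pdgfd rose in fibroblasts. Each line holds the 250 bases before the RefSeq start on the forward strand of GRCm38.p6, 5′ to 3′. They are chr5:75152001-75152250 for Pdgfra, chr3:81036166-81036415 for Pdgfc and chr9:6168236-6168485 for Pdgfd. Capitals mark matches to the motifs searched on both strands.
Pdgfra: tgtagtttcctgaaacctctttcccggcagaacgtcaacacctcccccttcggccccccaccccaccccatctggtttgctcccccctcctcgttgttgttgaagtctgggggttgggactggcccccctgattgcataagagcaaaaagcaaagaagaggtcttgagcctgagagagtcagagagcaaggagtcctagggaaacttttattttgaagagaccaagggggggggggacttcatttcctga
Pdgfc: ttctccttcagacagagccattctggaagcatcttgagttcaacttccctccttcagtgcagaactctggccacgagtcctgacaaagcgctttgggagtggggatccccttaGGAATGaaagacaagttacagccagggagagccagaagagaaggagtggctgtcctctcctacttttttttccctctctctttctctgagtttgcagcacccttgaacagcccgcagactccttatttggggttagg
Pdgfd: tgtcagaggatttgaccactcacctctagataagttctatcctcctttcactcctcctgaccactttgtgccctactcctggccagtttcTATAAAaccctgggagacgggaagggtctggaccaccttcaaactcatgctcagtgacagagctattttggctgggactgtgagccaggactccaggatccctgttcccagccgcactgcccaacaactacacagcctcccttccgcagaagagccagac
The motifs were the GC box GGGCGG, the TATA box TATAAA, the CCAAT box CCAAT, AP-1 TGANTCA, TEAD GGAATG, the E-box CACGTG and the forkhead motif TGTTTAC. The Pdgfc stretch held GGAATG 137 bases before the start, letters found in 12.6% of 32851 mouse promoters. The Pdgfd stretch held TATAAA 160 bases before the start, as 12.4% of promoters did somewhere in the same window. None of the 7 motifs was in the Pdgfra stretch. Entries existed for 4 of the 6 genes, and of the other motif matches only the GC box occurred, in both Pdgfa promoters and in 32.7% of all.

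In fibroblasts Pdgfra, the receptor for PDGF-A and PDGF-C, fell 5.70-fold with R4 and 8.17-fold with R10 on the log2(CP20M + 20) scale, and it fell with R4A1 as well. Pdgfrb was not called in any treatment. Pdgfra stood at 4877, 2606, 1645 and 1499 CP20M in Ve (lines M3, M3(2), M1(2) and M11, the order used for fibroblasts throughout). It was 1156, 383, 196 and 280 with R4 and 429, 303 and 152 with R10, which line M11 lacks. Every R4 and R10 library lay below every Ve library, and each line kept 11.9% to 23.7% of its own Ve value in R4 and 8.8% to 11.6% in R10. In R4A1 the values were 949, 398, 275 and 256, again all below Ve, and in A1 they were 4662, 2396, 1224 and 783, which overlap Ve.

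The differences were tested with limma on log2(CP20M + 20) over 11032 genes, with Benjamini-Hochberg adjusted p-values, and called at an adjusted p under 0.05 and a change of at least 1.5-fold on that scale. The log2 fold change of Pdgfra was −2.51 for R4 (SE 0.607, limma adjusted p = 0.0459, n = 4 against 4). A fit that blocked on the line, since a line is 1 mouse sampled in most treatments, gave an SE of 0.169 (limma adjusted p = 5.12e-08). For R10 it was −3.03 (SE 0.655, limma adjusted p = 0.0055, n = 3 against 4), and for R4A1 −2.49 (SE 0.607, limma adjusted p = 0.0362, n = 4 against 4). The Ve mean set against R10 includes line M11, and within lines M3, M3(2) and M1(2) the R10 differences were −3.45, −3.02 and −3.28. Across all 4 treatments at once, limma's moderated F statistic gave Pdgfra an adjusted p of 0.00918. With the line as a block, that test gave the 6 PDGF genes adjusted p-values from 8.88e-10 (Pdgfra) to 0.0257 (Pdgfa). In the blocked test 4837 of 11032 genes were under 0.05, against 928 without the block. In fits without the block, leaving out line M3(2) or M1(2) ended the R4, R10 and R4A1 calls of Pdgfra. The limma adjusted p was 0.321 and 0.357 in R4, 0.093 and 0.0736 in R10 and 0.241 and 0.231 in R4A1. The log2 fold changes nevertheless stayed between −2.37 and −2.66, −2.82 and −3.25, and −2.43 and −2.54. The calls were also lost with no filter on low values (limma adjusted p = 0.0867 for R4 and 0.0686 for R4A1) and in fits of the treated and Ve libraries alone (0.166 and 0.068), and with TMM scaling for R4 (0.0603). Of the 6 PDGF genes, 1 was called in R4, against 1.02% of all genes tested, 2 in R10, against 7.33%, and 1 in R4A1, against 1.66%. These comparisons share the 4 Ve libraries. In cultures measured in bulk, fewer cells of a type and less RNA per cell cannot be told apart.

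The doses and the combination were then compared with each other. Pdgfra in R10 differed from R4 by −0.52 on the log2 scale (SE 0.655, limma adjusted p = 0.822), and with the line as a block by −0.76 (SE 0.186, limma adjusted p = 0.0104), which passed. Without the block 0 of 6 genes were called between the doses, with 0 at an unadjusted p of 0.05 in limma, and 0.145% of all genes were called. Adding autogramin-2 to R4 moved Pdgfra by 0.03 (SE 0.607, limma adjusted p = 1.0), with a 95% interval of −1.26 to 1.31 that narrowed to −0.33 to 0.38 with the line as a block. R4A1 against A1 gave −2.11 (SE 0.607, limma adjusted p = 0.117), which passed only with the block (limma adjusted p = 3.34e-07). Of the 6 genes 0 were called for R4A1 against R4 and 0 for R4A1 against A1, where 0.00906% and 0.752% of all genes were, and at an unadjusted p of 0.05 limma counted 0 and 2.

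Autogramin-2 alone gave no call among the 6 genes or in the whole table (0% of 11032 genes), with 0 of the 6 and 120 of all genes at an unadjusted p of 0.05 in limma. The estimate furthest from 0 was that of Pdgfra, −0.38 (95% interval −1.67 to 0.90), and with the block it had a limma adjusted p of 0.66. The interaction of the drugs was called for 0 of the 6 genes and 0% of all genes, and Pdgfra had an interaction term of 0.41 (SE 0.858, limma adjusted p = 1.0, 0 of 6 at an unadjusted p of 0.05).

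Pdgfrb (ENSMUSG00000024620, chr18:61045150-61085061, forward strand), the receptor for PDGF-B and PDGF-D, was high in every fibroblast library. Its values were 6916, 5285, 5942 and 9948 CP20M in Ve, 7297, 4317, 4835 and 6719 in R4 and 5592, 4241 and 5217 in R10. A1 gave 7253, 4996, 5844 and 9482 and R4A1 6034, 5018, 5432 and 6881, so all treated groups overlap Ve. The log2 difference was −0.27 for R4 (95% interval −0.74 to 0.20) and −0.45 for R10 (−0.96 to 0.06, limma adjusted p = 0.238). When the line was blocked, limma adjusted p-values of 0.0337 and 0.012 went with sizes of −0.27 and −0.32, under the 1.5-fold threshold. Per kilobase the ratio of Pdgfrb to Pdgfra had a median of 5.16 in Ve, where it ran from 2.59 to 12.14, and to 6.61 without line M11, which has no R10 library. Its median in R4 was 32.3 and its range 11.6 to 45.1, and in R10 the median was 25.6 and the range 23.9 to 62.8.

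**Figure D1:**
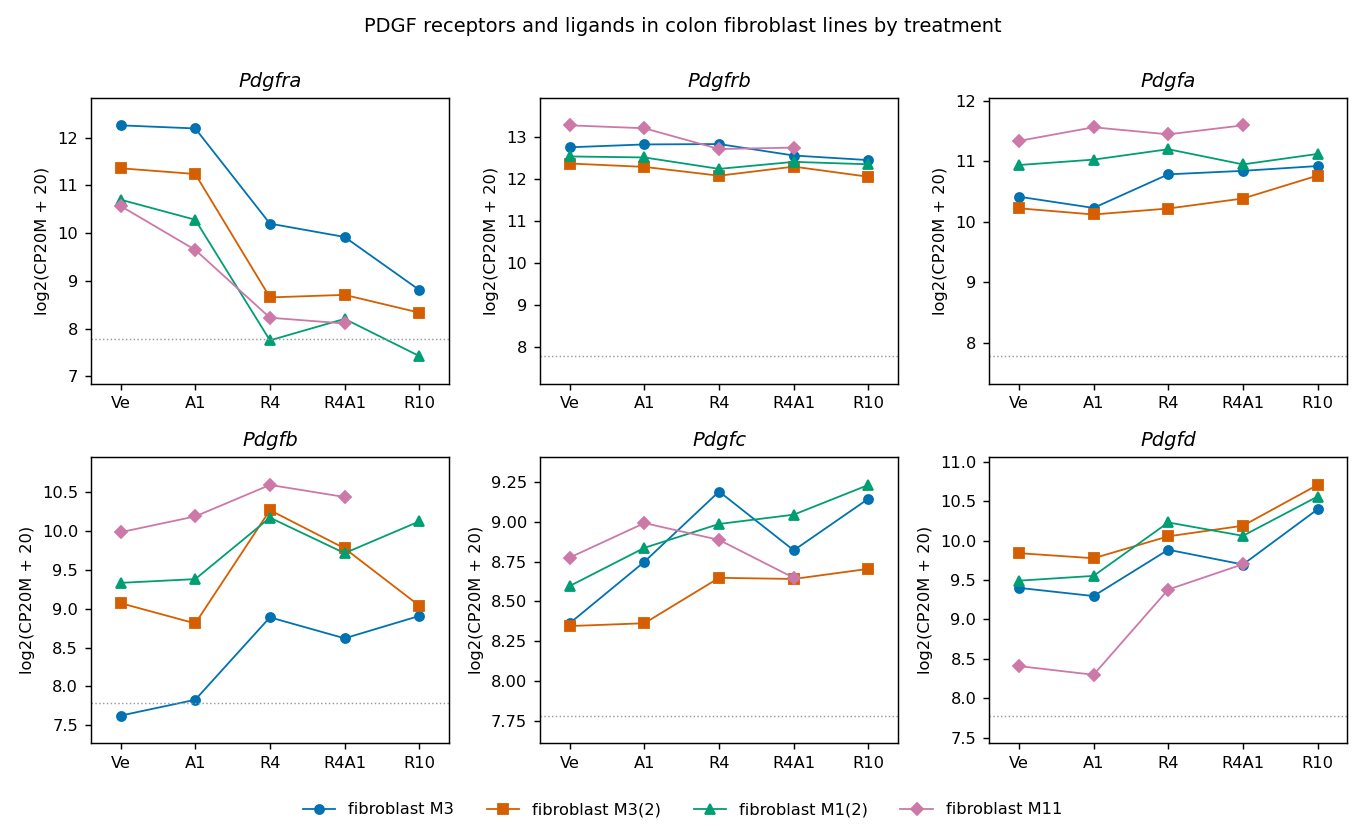
Level of each PDGF gene in the fibroblast lines, as log2(CP20M + 20) on the y axis against treatment on the x axis, with 1 point per library and lines joining the libraries of 1 fibroblast line. The dotted line marks the filter of 200 CP20M. Pdgfra drops in every line with R4, R4A1 and R10, Pdgfrb stays within a narrow band, and Pdgfd is highest in R10 in each line that has it.

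Pdgfd, which encodes a ligand of PDGFRβ, rose with R10 and was the only ligand gene called in fibroblasts without the block. It was 656, 897, 700 and 320 CP20M in Ve and 1328, 1650 and 1488 in R10, so all R10 libraries exceed all Ve libraries, with ratios of 1.84 to 2.13 within a line. R4 gave 925, 1043, 1181 and 646, R4A1 810, 1147, 1048 and 812 and A1 609, 857, 731 and 295. Each line was higher in R4 and in R4A1 than in its own Ve, while the groups overlap. For R10 the log2 fold change was 1.27 (SE 0.333, limma adjusted p = 0.0175, n = 3 against 4), and 1.06 with the block (limma adjusted p = 3.39e-05). Without line M3, M3(2) or M1(2) the R10 call was lost (limma adjusted p = 0.129, 0.0773 and 0.122), and without M11, which has no R10 library and the lowest Ve value, it stood at 0.00104 with a log2 fold change of 0.98. For R4 and R4A1 the log2 differences of 0.60 and 0.63 passed only with the block (limma adjusted p = 0.00448 and 0.00299, against 0.413 and 0.31 without it).

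Pdgfb, whose product binds both receptors, varied widely between lines. In Ve it was 177, 518, 625 and 994 CP20M, in R4 454, 1215, 1135 and 1527, in R4A1 373, 858, 821 and 1369 and in R10 460, 506 and 1097. A1 gave 207, 429, 647 and 1148. All 4 lines were higher in R4 than in Ve, by 1.54 to 2.56 times, and line M3(2) in R10 was back at its Ve level. The log2 difference in R4 was 0.98 (SE 0.562, limma adjusted p = 0.483), and with the line as a block 0.98 (SE 0.179, limma adjusted p = 0.000903), which passed. With the block R4A1 (0.63, limma adjusted p = 0.0151) and R10 (0.65, limma adjusted p = 0.0142) passed as well.

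Endothelial cells are a known source of Pdgfb, and endothelial markers were read beside it. In limma 0 of the 6 were called in R4, R10, R4A1 or A1, against 1.02%, 7.33%, 1.66% and 0% of all genes. At an unadjusted p under 0.05 limma counted 1 in R4 and 0 in the others. The sum of the 6 endothelial markers was 1060, 9686, 1855 and 2724 CP20M in Ve, 1691, 27411, 6459 and 8278 in R4 and 1546, 6168 and 1814 in R10. In R4A1 it was 1969, 16271, 1859 and 1952 and in A1 907, 6207, 1845 and 2072. The marker sum was higher in R4 than in Ve in all 4 lines, as Pdgfb was, while in R4A1 it was below Ve in line M11, where Pdgfb was 1369 against 994, and differed little from Ve in M1(2). The defining markers Pecam1 and Cdh5 had medians of 646 and 948.5 in Ve and 2023 and 2510 in R4. Their part in the Pdgfb result was not tested.

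Pdgfa and Pdgfc, the ligands of PDGFRα, were not called in any fibroblast comparison. Pdgfa was 1346, 1176, 1944 and 2569 CP20M in Ve, 1745, 1173, 2334 and 2771 in R4 and 1921, 1720 and 2210 in R10. In R4A1 it was 1817, 1318, 1958 and 3074 and in A1 1181, 1094, 2069 and 3007, so every treated group overlapped Ve. The log2 difference for R10 was 0.21 (95% interval −0.58 to 1.00) and for R4 0.18 (−0.55 to 0.92). Pdgfc was 309, 305, 367 and 418 in Ve, 564, 381, 487 and 453 in R4 and 546, 397 and 581 in R10. Every line was higher than its own Ve in both, by 1.08 to 1.83 times in R4 and 1.30 to 1.77 times in R10. In R4A1 Pdgfc was 432, 379, 508 and 381 and in A1 410, 309, 437 and 489. The log2 difference of Pdgfc for R10 was 0.51 (SE 0.173, limma adjusted p = 0.06), and with the block 0.53 (limma adjusted p = 0.00167), under the size threshold. Without line M3(2) or M11 it passed both (0.61 and 0.59, limma adjusted p = 0.0467 and 0.03).

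Markers of other cell types also differed between treatments in the fibroblast cultures. The sum of the 11 pericyte and smooth muscle markers was 44330 to 87669 CP20M in Ve and 118824 to 139107 in R10. Of the 6 tested, Notch3 (log2 fold change 2.08), Myh11 (1.87) and Mcam (1.40) were called, against 7.33% of all genes. In R4 the sum was 70232 to 147039, with Notch3 (1.36) and Myh11 (1.86) called, against 1.02% of all genes. In R4A1 it was 74761 to 126817, with Notch3 (1.41) called, against 1.66% of all genes. In every line both sums lay above that line in Ve. Macrophage and leukocyte markers summed to 1060 to 5761 in Ve 582 to 622 in R10, 635 to 1925 in R4 and 449 to 712 in R4A1. Lyz2 fell by 2.60 on the log2 scale in R10 and by 2.58 in R4A1, and Etv1, a marker of interstitial cells of Cajal, by 1.32 and 1.49. Ano1, the other tested marker of these cells, was not called. Its medians were 224.5 in Ve, 329 in R4, 195 in R10 and 205.5 in R4A1. Among fibroblast markers Postn rose by 2.18 and Col3a1 fell by 1.43, and the sum over the list was 200090 to 269333 in Ve and 201002 to 221344 in R10. Cd34, a marker of Pdgfra-expressing colon mesenchyme, had a median of 4011 in Ve, 1782.5 in R4, 1701 in R4A1 and 1318 in R10, and was not called. Thy1 and Dcn went the other way. In the same order Thy1 had medians of 496, 919.5, 981 and 960, and Dcn of 7291.5, 14833.5, 10548.5 and 11372. Of the 11 fibroblast markers 6 had a positive log2 difference in R10. The 6 telocyte markers summed to 6562 to 13968 in Ve and to 15225 to 20528 in R10, which line M11 lacks. That sum is mostly F3 (medians 6687.5 in Ve and 12598 in R10) and Wnt5a (3531.5 and 6457). Bmp4 went the other way (520.5 and 357), and Foxl1, Bmp5 and Bmp7 did not exceed 24, 5 and 5. Of the 3 telocyte markers tested 0 were called in R10, with 2 at an unadjusted p under 0.05 in limma. The part of all these markers in the changes of Pdgfra and Pdgfd was not tested.

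In organoids the receptor genes were near 0. Pdgfb and Pdgfc rose about 3-fold with regorafenib over both genotypes on the log2 scale of the test. For Pdgfc the value added before taking logs is not small beside its Ve levels, so that scale understates its rise in CP20M. The median of Pdgfc was 58.5 CP20M in Ve and 263.5 with regorafenib. The pooled difference of Pdgfd did not pass while the shallow M41 library was kept, and Pdgfa was lower in R8. Pdgfb also rose with 5-FU, and no difference in the regorafenib response between tumoroids and colonoids passed the test. Of the 6 genes, 4 passed the filter of 200 CP20M in at least 2 libraries.

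Pdgfb was 453, 1065 and 659 CP20M in colonoids in Ve (lines M41, M40 and M1, the order used for colonoids throughout), 2068, 2053 and 2804 in R4 and 2616, 2774 and 2242 in R8. In tumoroids it was 505, 745 and 782 in Ve (lines F11, M3 and M14, the order used for tumoroids), 1752, 2067 and 2317 in R4 and 1354, 1952 and 1861 in R8. All 12 regorafenib libraries, with a median of 2067.5, lay above all 6 Ve libraries, with a median of 702. Pooled over genotypes, the log2 fold change was 1.62 (SE 0.162, limma adjusted p = 1.29e-05), a 3.07-fold rise. Within colonoids it was 1.79 (SE 0.229, limma adjusted p = 0.000273) and within tumoroids 1.45 (SE 0.229, limma adjusted p = 0.00209). R4 and R8 against Ve gave 1.65 and 1.59, and R8 against R4 gave −0.05 (95% interval −0.45 to 0.35).

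Pdgfc was low without drug, at 70, 49 and 25 CP20M in colonoids and 53, 109 and 64 in tumoroids in Ve. With R4 it was 40, 205 and 137 in colonoids and 221, 291 and 198 in tumoroids, and with R8 399, 248 and 280 and 279, 436 and 311. All R8 libraries lay above all Ve libraries of both genotypes, and in R4 the library of line M41 was the only one below its own Ve, at a value that is 1 read. Pooled over genotypes, the log2 fold change was 1.67 (SE 0.261, limma adjusted p = 0.000338). It was 1.22 for R4 (SE 0.302, limma adjusted p = 0.0121) and 2.12 for R8 (SE 0.302, limma adjusted p = 0.00018). R8 against R4 gave 0.91 (95% interval 0.27 to 1.55, limma adjusted p = 0.19), which did not pass. Within colonoids it was 1.64 (SE 0.369, limma adjusted p = 0.0084) and within tumoroids 1.70 (SE 0.369, limma adjusted p = 0.0124). The colonoid call was lost without line M40 or M1 (limma adjusted p = 0.0551 and 0.0936) and in a fit of the colonoids alone (0.0699), the tumoroid call without F11, M3 or M14 (0.122, 0.0815 and 0.136), and the R4 call without M1, F11 or M14 (0.0687, 0.0667 and 0.0642). The 9 libraries at or above 200 CP20M are all regorafenib libraries, so Pdgfc entered the test through the group in which it is high. With no filter, over all 36786 genes with a read in these 18 libraries, the pooled difference had a limma adjusted p of 0.000842.

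Counts of calls in this paragraph are given over the other 3 tested genes, without Pdgfc. The later counts for the genotypes and for 5-FU against Ve include Pdgfc, which is in those fits through regorafenib libraries. With regorafenib over both genotypes 1 of the 3 was called higher, Pdgfb, against 7.58% of 11320 genes. Lower calls numbered 0, against 8.63%, with Pdgfa lower at an unadjusted p under 0.05 in limma. For R4 the count was 1 of 3 against 13.6%, and for R8 2 of 3 against 16.9%. For R8 against R4 it was 0 of 3 against 0.451%, with 0 of 3 at an unadjusted p of 0.05 in limma. In colonoids 2 of 3 were called against 13.3% and in tumoroids 1 of 3 against 6.78%. Scaling with TMM factors changed the split over all genes from 858 higher and 977 lower to 1016 higher and 786 lower, and the median of all genes from −0.10 to −0.04. In colonoids the split moved from 612 higher and 888 lower to 787 higher and 705 lower, and for R4 over both genotypes from 629 and 913 to 834 and 635, with a median of −0.15 that became −0.05. For R8 against R4 it moved from 21 and 30 to 14 and 40, with a median of 0.11 that became 0.04, and for 5-FU from 177 and 95 to 213 and 67.

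**Figure D2:**
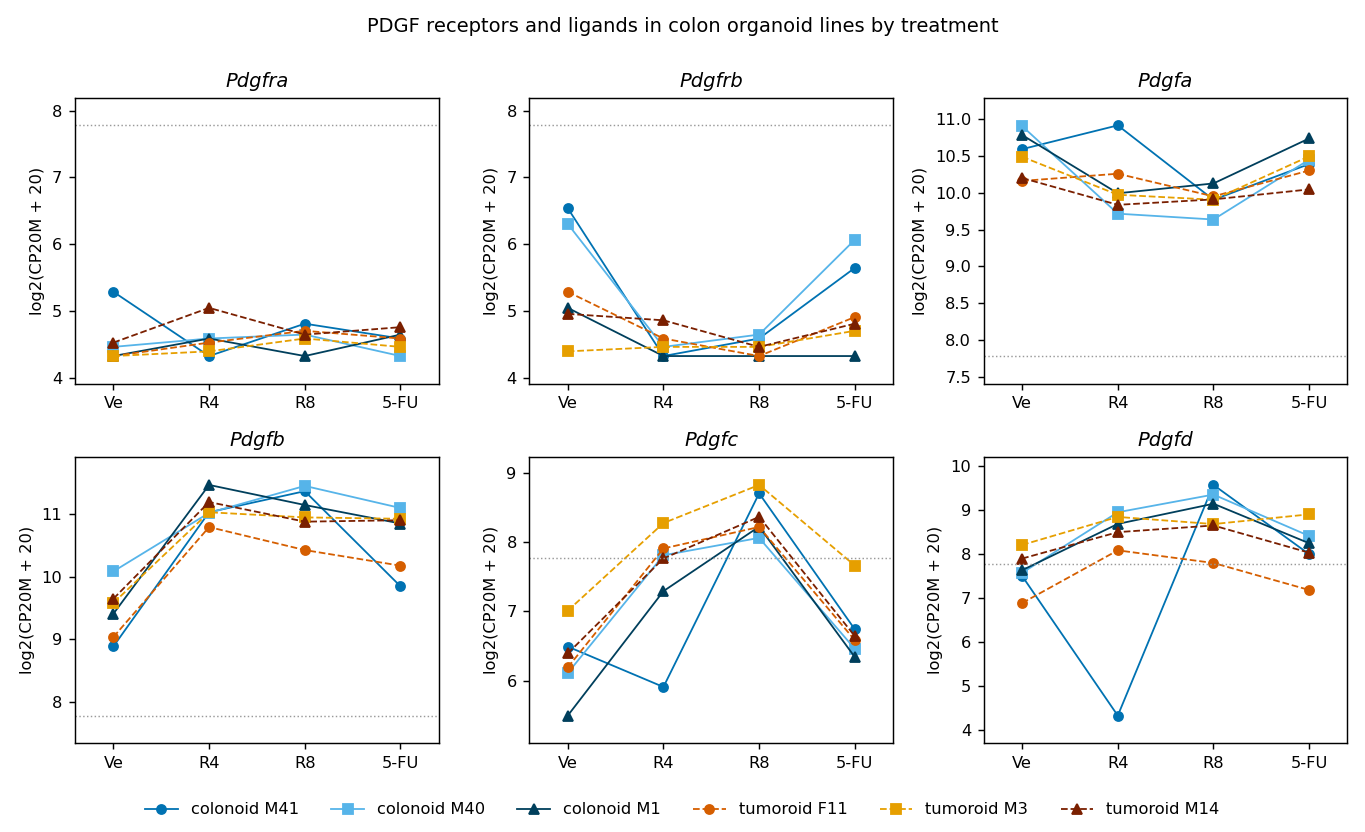
Level of each PDGF gene in the organoid lines, as log2(CP20M + 20) on the y axis against treatment on the x axis, with 1 point per library, solid lines for colonoid and dashed lines for tumoroid lines. The dotted line marks the filter of 200 CP20M. Pdgfb is higher with R4, R8 and 5-FU in every line, Pdgfc peaks in R8, the receptors stay below the filter, and the 0 of Pdgfd in line M41 in R4 stands apart.

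Pdgfd depended on the shallow library of line M41 in R4, in which it had 0 reads. A count of 0 there allows up to 117 CP20M. Colonoids had 161, 170 and 178 CP20M in Ve, 0, 474 and 391 in R4 and 740, 633 and 545 in R8, and tumoroids 98, 275 and 218 in Ve, 251, 439 and 341 in R4 and 202, 390 and 381 in R8. Colonoids in R8 all lay above Ve, by 3.06 to 4.60 times within a line, while the tumoroid groups overlap although each line was higher, by 1.42 to 2.06 times. Over both genotypes the log2 difference was 0.77 (SE 0.507, limma adjusted p = 0.284) and did not pass. Without the M41 library in R4 it was 1.14 (SE 0.196, limma adjusted p = 0.000425) and passed, as did R8 against Ve (1.25 with and without it, limma adjusted p = 0.000572, against 0.141 with that library). R8 against Ve also passed with a pseudocount of 100 CP20M (0.99, limma adjusted p = 0.0424), in a fit of the R8 and Ve libraries alone (0.00186) and without line M41 (0.0056).

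Pdgfa, the epithelial ligand of PDGFRα, was the ligand gene that was lower in R8. It was 1524, 1899 and 1744 CP20M in colonoids in Ve, 1912, 821 and 999 in R4 and 939, 776 and 1098 in R8. Tumoroids had 1125, 1417 and 1157 in Ve, 1205, 985 and 894 in R4 and 970, 939 and 942 in R8. Both genotypes had all R8 libraries below their Ve libraries, and in R4 lines M41 and F11 were above their own Ve. Pdgfa fell in R8 by 0.62 on the log2 scale (SE 0.173, limma adjusted p = 0.0174). That call was lost with TMM scaling (−0.58, under 1.5-fold), with a pseudocount of 100 CP20M (−0.58), and without colonoid line M40 (−0.52, limma adjusted p = 0.0613) or tumoroid line F11, M3 or M14 (limma adjusted p = 0.0519, 0.0996 and 0.0739). Over both doses the difference was −0.51 (SE 0.150, limma adjusted p = 0.0199), short of the size threshold, and without the M41 library in R4 it was −0.60 (limma adjusted p = 0.000213) and passed. In colonoids it was −0.71 (limma adjusted p = 0.0339) and in tumoroids −0.31 (limma adjusted p = 0.44), and the colonoid call was lost with TMM scaling (−0.61, limma adjusted p = 0.111), with no filter (0.0716), in a fit of the colonoids alone (0.155) and without any 1 line other than M41 (0.0591 to 0.25).

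The genotypes were compared directly. The response of tumoroids minus that of colonoids was 0.40 for Pdgfa (95% interval −0.24 to 1.04), −0.33 for Pdgfb (−1.02 to 0.36), 0.06 for Pdgfc (−1.05 to 1.17) and −0.01 for Pdgfd (−2.16 to 2.15). None of the 4 was called, 0.00883% of all genes were, and 0 of 4 had an unadjusted p under 0.05 in limma. In Ve tumoroids differed from colonoids by −0.48 for Pdgfa (limma adjusted p = 0.374), −0.04 for Pdgfb, 0.50 for Pdgfc and 0.09 for Pdgfd. Again 0 of 4 were called, against 1.39% of all genes, with 0 at an unadjusted p of 0.05. The Pdgfa values in Ve were 1125 to 1417 in the 3 tumoroid lines and 1524 to 1899 in the 3 colonoid lines. For Pdgfb in R8 they were 1354 to 1952 and 2242 to 2774 (log2 difference −0.57, limma adjusted p = 0.633). The share of all genes whose ranges separate in this way was not counted. In R8 0 of 4 genes were called, with 1 at an unadjusted p of 0.05 in limma, against 0.115% of all genes.

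5-FU, which is no kinase inhibitor, raised Pdgfb in all 6 lines. Pdgfb with 5-FU was 900, 2168 and 1823 CP20M in colonoids and 1136, 1922 and 1891 in tumoroids, 1.99 to 2.77 times the Ve value of the same line. Pooled over genotypes, the log2 fold change was 1.19 (SE 0.221, limma adjusted p = 0.00721), and 1 of 4 genes was called against 2.35% of 11562 genes. The call was lost without colonoid line M1, tumoroid line M3 or tumoroid line M14 (limma adjusted p = 0.109, 0.0948 and 0.0643). Within colonoids (1.14, limma adjusted p = 0.322) and tumoroids (1.25, limma adjusted p = 0.0924) it passed only with the line as a block (limma adjusted p = 0.0324 and 0.00989). Without the block 0 of 4 genes were called in each, with 1 at an unadjusted p of 0.05, against 0.0432% and 0.182% of all genes.

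The other ligand genes did not pass with 5-FU. Pdgfa was 1322, 1379 and 1688 in colonoids and 1243, 1423 and 1037 in tumoroids (log2 difference −0.12, 95% interval −0.46 to 0.22). Pdgfc was 87, 68 and 61 and 76, 183 and 80 (0.46, −0.16 to 1.07). Pdgfd was 235, 320 and 283 and 125, 458 and 241 (0.51, −0.63 to 1.65). R8 was then compared with 5-FU, a contrast added after the values were seen. Pdgfc was higher in R8 by 1.67 (SE 0.295, limma adjusted p = 0.00109). It entered this test through regorafenib libraries, and with no filter the limma adjusted p was 0.00257. Of the other 3 genes 0 were called in limma, with Pdgfa at an unadjusted p under 0.05, against 8.78% of all. Pdgfb differed by 0.40 (95% interval −0.06 to 0.86, limma adjusted p = 0.261), and Pdgfa by −0.50 (limma adjusted p = 0.0496), under the size threshold. Pdgfd differed by 0.74 (limma adjusted p = 0.43), and it passed without the M41 library in R4 (limma adjusted p = 0.0449).

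Neither receptor gene reached the filter in organoids. Pdgfra gave 51 reads in the 21 libraries of estimated depth together, with values in all 24 from 0 to 19 CP20M and 6 libraries at 0. Pdgfrb gave 195 reads in the same 21 libraries, and 0 to 73 CP20M in all 24 with 5 libraries at 0. Its values were 73, 59 and 13 in colonoids and 19, 1 and 11 in tumoroids in Ve, 0, 2 and 0 and 4, 2 and 9 in R4, and 4, 5 and 0 and 0, 2 and 2 in R8. Pdgfrb was lower with regorafenib than in Ve in 5 of 6 lines, with a mean log2 difference of −0.94 ± 0.83 (SD, n = 6, exact sign-flip permutation test, two-sided p = 0.0625, adjusted p = 0.125 over the pair of receptors). Pdgfra differed by 0.06 ± 0.39 (SD, n = 6, exact sign-flip permutation test, p = 0.75), and the smallest p this design allows is 0.0312.

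**Figure D3:**
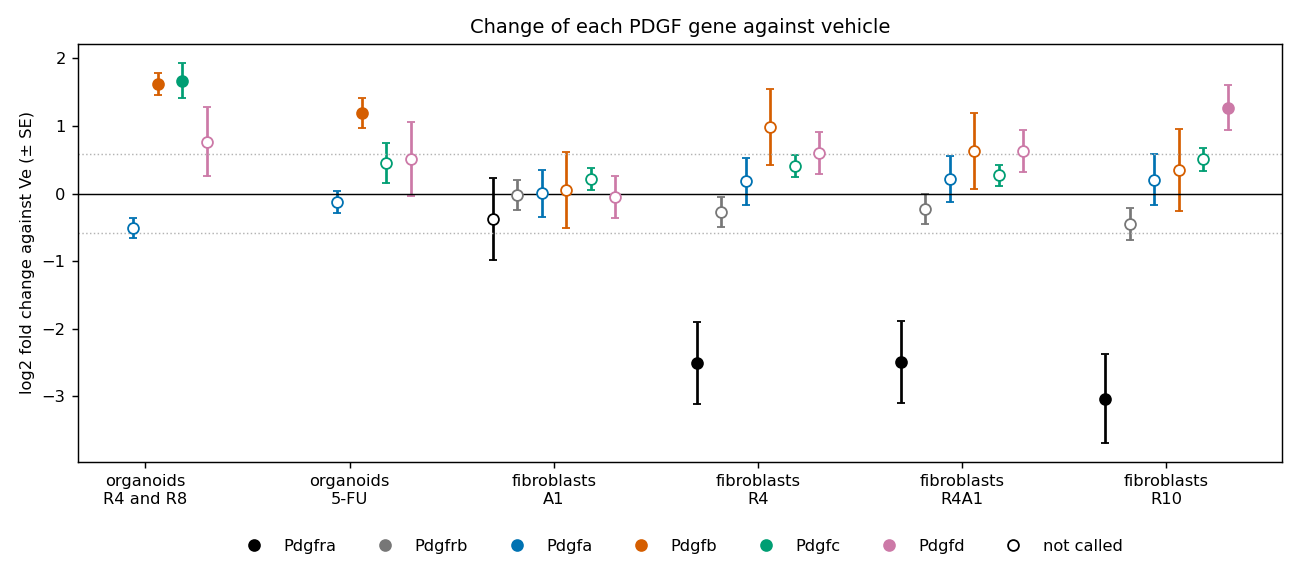
Log2 fold change against Ve (y axis, points with bars of ± 1 SE from limma) of each PDGF gene in 6 comparisons (x axis). Filled points were called and open points were not, and dotted lines mark the 1.5-fold threshold. Pdgfra lies at −2.51, −2.49 and −3.03 in fibroblasts with R4, R4A1 and R10, and Pdgfb at 1.62 and 1.19 in organoids with regorafenib and 5-FU.

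Markers of other cell types were read beside these values. Of 11 fibroblast markers only Vim was tested and called (log2 fold change 4.08), with medians of 4.5 CP20M without drug, 413 with R4 and 552.5 with R8, and it entered the test through treated libraries. The other 10 stayed under 200 CP20M. Col1a1 had medians of 3, 13.5 and 25 and reached 118, Postn reached 107, and Col1a2 and Lum did not exceed 4 and 0. Of 11 pericyte and smooth muscle markers 3 were tested, and Mcam (3.16) and Notch3 (1.66) rose, while Tagln was 40 to 245 and Acta2 at most 19. The 6 endothelial markers summed to 4 to 54 CP20M in Ve and 0 to 158 with regorafenib, with Pecam1 and Flt1 reaching 79. Of 7 macrophage and leukocyte markers 2 were tested. Cd68 rose (1.60), having entered through treated libraries, Csf1r was 352 to 625 in every library, and Lyz2, C1qa and Ptprc did not exceed 4, 2 and 7. Of 8 epithelial markers 1 was called lower, the transcription factor gene Cdx2, which fell by 1.89 (limma adjusted p = 0.000292), and 0 were called higher. Beside these lists, 7.58% of all genes tested were called higher and 8.63% lower. Krt20 was not called, with medians of 410.5 in Ve, 76.5 in R4 and 18.5 in R8, nor was Lgr5 (530.5, 395 and 140.5). Epcam (12747.5, 12232 and 9875) and Krt8 (41456, 43695.5 and 42673) moved less. The part of the genes that moved in the changes of Pdgfb and Pdgfc was not tested.

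Per kilobase the ligand genes changed places. In Ve the order in both genotypes was Pdgfa (median 559 CP20M per kb in colonoids and 371 in tumoroids), Pdgfb (158 and 179), Pdgfd (53.9 and 69.1) and Pdgfc (9.63 and 12.6), and the ranges of these neighbours did not overlap. In R8 Pdgfb came first (629 and 447) and Pdgfa second (301 and 302), again without overlap, while Pdgfd (201 and 121) and Pdgfc (55.02 and 61.1) overlapped in tumoroids only. Pdgfb made up 16.4% to 27.6% of the summed ligand level per kilobase in colonoids in Ve and 48.2% to 57.2% in R8. In tumoroids its share was 23.2% to 29.3% in Ve and 43.1% to 48.0% in R8. With 5-FU Pdgfa and Pdgfb overlapped in both genotypes.

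In fibroblasts in Ve the order was Pdgfrb (median 1174 CP20M per kb), Pdgfa (527), Pdgfd (215), Pdgfra (212), Pdgfb (137) and Pdgfc (66.4). Pdgfrb stood clear of the others, and from Pdgfd down each range overlapped the next. Pdgfa stood clear of Pdgfd, but its range of 377 to 823.7 overlapped that of Pdgfra, 149.5 to 486.5. In line M3 Pdgfra (486.5) was above Pdgfa (431.5). In R10 the order was Pdgfrb (952), Pdgfa (616), Pdgfd (472), Pdgfb (122), Pdgfc (107) and Pdgfra (30.2), and only Pdgfb and Pdgfc overlapped. By the group medians Pdgfra thus moved from the fourth place to the last. In the 3 lines with an R10 library the share of Pdgfd in the ligand sum was 20.8% to 33.6% in Ve and 30.3% to 41.1% in R10, and that of Pdgfa 44.6% to 58.4% and 43.3% to 49.1%. In line M11 in Ve the shares were 8.14% and 66.1%. Organoids and fibroblasts were sequenced and scaled in separate tables, so their levels stand side by side without a test.

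**Figure D4:**
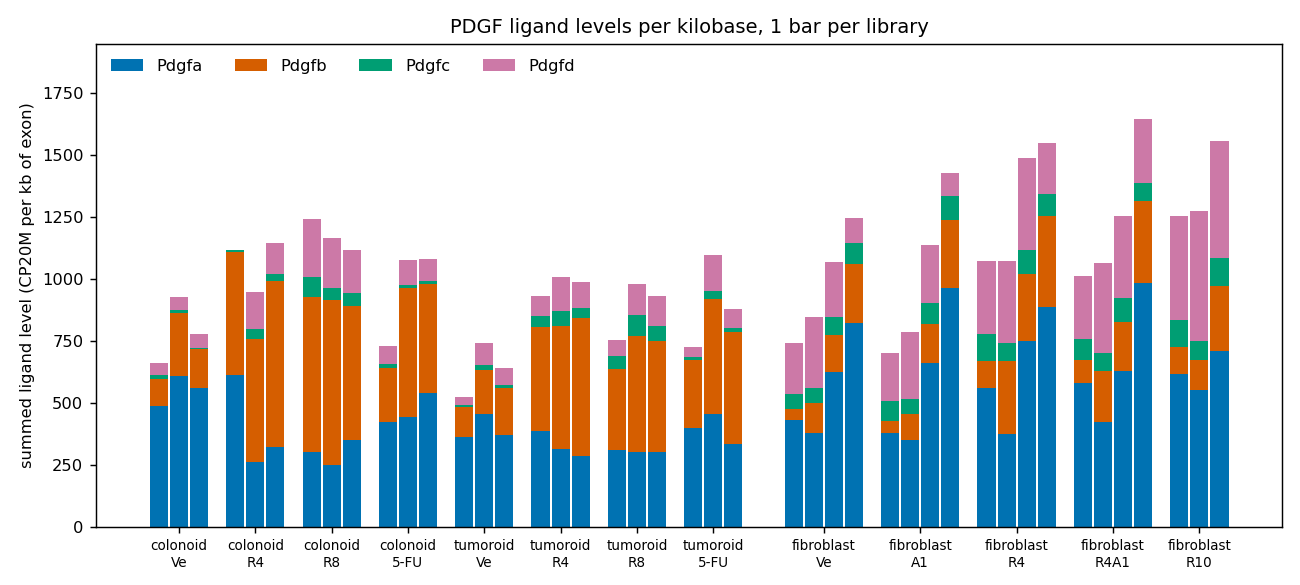
Stacked level of the 4 ligand genes in CP20M per kb of exon (y axis), 1 bar per library, grouped by kind and treatment (x axis), with organoids and fibroblasts scaled in separate tables. Lines follow the order M41, M40, M1 in colonoids, F11, M3, M14 in tumoroids and M3, M3(2), M1(2), M11 in fibroblasts. Pdgfb takes 48.2% to 57.2% of the bar in colonoids in R8 against 16.4% to 27.6% in Ve, and Pdgfd 30.3% to 41.1% in fibroblasts in R10.

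Other genes of the pathway were read from lists of its parts. Among the proteases that process PDGFs, 1 of 6 rose in organoids with regorafenib and 0 fell, against 7.58% and 8.63% of all genes. It was Plat, the tissue plasminogen activator that processes PDGF-C, at 245 to 1390 CP20M in Ve and 544 to 4536 with regorafenib (log2 fold change 1.21, limma adjusted p = 0.00845). The list's median log2 fold change was 0.19, against −0.10 for all genes. In fibroblasts with R10 2 of 6 were called, against 7.33% of all genes. Plau, the urokinase that processes PDGF-D, fell from 2828 to 6227 CP20M in Ve to 1203 to 1249 (log2 fold change −1.89, limma adjusted p = 0.00207). St14, which encodes matriptase, rose from 63 to 104 up to 193 to 320 (1.34, limma adjusted p = 0.00343), and the median of the 6 was −0.20 against −0.04 for all genes. St14 did not exceed 104 CP20M in Ve and so entered the test through treated libraries in which it is high. With R4 St14 rose (1.15, limma adjusted p = 0.0241), and with R4A1 Plau fell (−1.30, limma adjusted p = 0.0393). Autogramin-2 alone gave 0 calls in limma in any of these lists, with 0 genes at an unadjusted p under 0.05.

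Of the co-receptors and binding proteins, 4 of 6 were tested in organoids and Slc9a3r2, a PDZ adaptor of PDGF receptors, rose by 0.97 (limma adjusted p = 0.000497), with a list median of 0.72 (1 of 4, against 7.58% of all genes called higher). Slc9a3r2 was 96 to 201 CP20M in Ve and 196 to 530 with regorafenib. It therefore entered the test largely through treated libraries in which it is high. In fibroblasts with R10 0 of 6 were called in limma, with 2 at an unadjusted p under 0.05 and a list median of −0.28. Sparc, which binds PDGF-B, had a log2 difference of 0.34 (limma adjusted p = 0.027), and Nrp1, a co-receptor, −0.51 (limma adjusted p = 0.0969). Of the 5 phosphatases and ubiquitin ligases that end receptor signalling, 0 were called in limma in either comparison, with 2 in organoids and 4 in fibroblasts with R10 at an unadjusted p under 0.05, and their medians were 0.16 and −0.32. The smallest adjusted p-values belonged to the phosphatase gene Ptpn2 (−0.57, limma adjusted p = 0.00864) and the ligase gene Cbl (0.37, limma adjusted p = 0.0775) in organoids. In fibroblasts they belonged to Cblb (−0.68, limma adjusted p = 0.0503) and Ptpn1 (−0.32, limma adjusted p = 0.0636).

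Receptor effectors and adaptors carry the signal from the receptors inward. In organoids 1 of 25 rose and 0 fell, against 7.58% and 8.63% of all genes. It was Plcg1, which encodes PLCγ1 and went from 1081 to 2440 CP20M in Ve to 2576 to 5061 with regorafenib (log2 fold change 1.13, limma adjusted p = 3.26e-05), without overlap. In fibroblasts with R10 1 of 26 was called, against 7.33% of all genes, the Ras GTPase activator Rasa1, which fell by 1.04 on the log2 scale (limma adjusted p = 0.0266). The list medians were 0.00 and −0.08. With 5-FU 1 of 25 rose in organoids, against 2.35% of all genes called, and it was again Plcg1 (0.83, limma adjusted p = 0.00616). In fibroblasts with R4 limma called 0 of 26, with 3 at an unadjusted p under 0.05.

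Early response genes are those that PDGF is known to induce within hours. In organoids 6 of 21 fell, against 8.63% of all genes, and 1 rose, against 7.58%, with a list median of −0.27. Egr1 fell by 3.03 (limma adjusted p = 3.67e-05), Fos by 1.88 (limma adjusted p = 2.19e-05) and Klf10 by 1.31 (limma adjusted p = 0.000124), all transcription factors, whereas Ctgf, a matricellular protein gene, rose by 1.37 (limma adjusted p = 0.000413). In fibroblasts with R10 5 of 24 fell and 1 rose, against 7.33% of all genes called, with a list median of −0.47. The falls included Spred1, an inhibitor of Ras signalling (−0.89, limma adjusted p = 0.000643), the hyaluronan synthase gene Has2 (−2.35, limma adjusted p = 0.00126), Myc (−0.83, limma adjusted p = 0.00186) and the chemokine gene Ccl2 (−2.21, limma adjusted p = 0.0101). Ctgf was the gene that rose there (1.35, limma adjusted p = 0.0255), and Fosl1, an AP-1 subunit, was the other that fell (−0.83, limma adjusted p = 0.0428). With R4 1 of 24 fell, Spred1 (−0.64, limma adjusted p = 0.0172), and with R4A1 1 fell, Spry4, which inhibits receptor tyrosine kinase signalling (−0.79, limma adjusted p = 0.0341). These genes respond to many growth factors, and the organoid medium holds EGF.

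Related class III receptors and VEGF ligands gave 0 calls in limma, among 3 tested genes in organoids (1 at an unadjusted p under 0.05) and 6 in fibroblasts with R10 (3 at an unadjusted p under 0.05). Csf1r in organoids had 0.28 (limma adjusted p = 0.0809) and Vegfa −0.19 (limma adjusted p = 0.516). Vegfc in fibroblasts had −1.06 (limma adjusted p = 0.0534) and Vegfb 0.32 (limma adjusted p = 0.058).

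The genes whose pattern was most like that of a PDGF gene were found by Pearson correlation of log2(CP20M + 20) after each line's mean was subtracted. These correlations describe libraries that share treatments and depth. In the 19 fibroblast libraries Pdgfra was nearest to Socs5 (r = 0.99), Eps8 (0.99), Errfi1 (0.98), Vat1l (0.98) and Adcy7 (0.98), and Pdgfd to Adra1b (0.97), Tfpi (0.95), Cnksr3 (0.95), Stk38l (0.94) and Cyr61 (0.94). Pdgfb there was nearest to Fhdc1 (0.97), Pdgfa to Ppt1 (0.94), Pdgfc to Usp2 (0.92) and Pdgfrb to Dock5 (0.90). In the 24 organoid libraries the genes nearest to Pdgfb included Kif3c (0.97), Pitpnc1 (0.96), Msn (0.95) and Plcg1 (0.95). Pdgfa was nearest to Srf (0.90), and then to 6330403L08Rik (0.89), which overlaps it on the other strand.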

How the data were processed

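RNA was sequenced from 24 organoid and 19 fibroblast libraries. The authors trimmed reads with Trimmomatic 0.36, aligned them to GRCm38 with STAR 2.5.3a and counted them per Ensembl gene with HTSeq 0.9.1. The deposited values (CP20M, a scaled signal) are those counts multiplied by the authors to a total of 20000000 per library and rounded up. They are not per gene length, and column sums ran from 20006722 to 20019739 in organoids and from 20008567 to 20015495 in fibroblasts. The labels and the study's methods name different library kits, and whether HTSeq counted by strand is not given in the sources used here. One tumoroid group has titles that contradict its genotype label, and 1 fibroblast R4A1 title gives no line. Both were placed by the genotype label or library name.

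Because these values are scaled, limma 3.58.1 (R 4.3.3) was run on log2(CP20M + 20), with eBayes and a trend, 1 coefficient per group and Benjamini-Hochberg adjustment over all genes with at least 200 CP20M in 2 libraries. This was 11320 genes in the 18 organoid libraries without 5-FU, 11562 in all 24 and 11032 in fibroblasts. Calls needed an adjusted p under 0.05 and a 1.5-fold change. Receptors below the filter in organoids were tested with an exact sign-flip permutation test over 6 lines. The comparisons over both genotypes of R4 and R8 with Ve, R8 with R4 and R8 with 5-FU were added after the values were seen. The members and lists were chosen with earlier results of these data known. For pooled regorafenib and R10, up to 4 called genes per list with the smallest adjusted p were named, or 2 where none was called. The 5 genes most correlated with a member were found in the same tables, of which the text names some, and other called genes were named after their values were seen. Depth was estimated from the step between low values. It limits low genes, and limits from a count of 0 (3 reads) cover counting error only.

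A line is 1 mouse, so libraries of a line are paired. Deviations from the group means correlated at a mean r of 0.43 within lines and −0.21 between lines in the 18 organoid libraries, and at 0.72 and −0.23 in fibroblasts. Such deviations sum to 0 in each group, so the between-line values follow from the within-line ones and add no separate evidence. Blocked values stand beside results they change. No 2 libraries held identical values. The script was tested on simulated data. Lists, levels and sequences were handled in Python 3.11.15. Lengths came from GENCODE M21, and promoters from RefSeq on GRCm38.p6.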

Additional observations from a re-analysis of the deposited data

How the results depend on the processing

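The alternatives were pseudocounts of 1 and 100 CP20M, no filter, TMM scaling, the line as a replicate block, only the groups compared, each line left out, an FDR of 0.001, all 24 organoid libraries, the organoids without the M41 library in R4 and the fibroblasts without M11. They left 812 values of single PDGF genes on the same side of the threshold with the same sign. Another 26 newly passed, 44 no longer passed and 22 changed sign. The number of PDGF genes called with regorafenib in organoids was 2, Pdgfc included, and 4 without the M41 library in R4, with or without the replicate block, and 2 to 4 when lines were left out. With 5-FU it was 1, and 0 at an FDR of 0.001 and 0 to 1 when lines were left out. In fibroblasts the count for R4 was 1, and 0 with no filter, with TMM scaling and with only the groups compared, 3 with the replicate block and 0 to 1 when lines were left out. For R4A1 it was 1, and 0 with no filter and with only the groups compared, 3 with the replicate block and 0 to 1 when lines were left out. For R10 it was 2, and 3 with the replicate block and 0 to 3 when lines were left out. Besides the blocked values given with the results, Pdgfb (0.59, limma adjusted p = 0.0316) and Pdgfd (0.68, limma adjusted p = 0.00217) passed with the block for R4A1 against A1, and the block alone changed no other call.

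The values that changed sign lay between −0.05 and 0.09 in the main fits. When lines were left out, tumoroids against colonoids in Ve ran from −0.32 to 0.27 for Pdgfb and −0.18 to 0.48 for Pdgfd, A1 against Ve from −0.0664 to 0.0707 for Pdgfa and −0.0028 to 0.15 for Pdgfb, R8 against R4 in organoids from −0.12 to 0.0647 for Pdgfb, and R10 against R4 from −0.12 to 0.20 for Pdgfa. R4A1 against R4 ran from −0.12 to 0.13 for Pdgfra, −0.0239 to 0.14 for Pdgfrb, −0.0149 to 0.12 for Pdgfa and −0.0740 to 0.10 for Pdgfd. In the 3 lines with an R10 library, Pdgfa and Pdgfb in A1 were −0.0664 and −0.0027, and Pdgfa and Pdgfd in R4A1 against R4 −0.0093 and −0.0740. The causes were not tested.

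Counts over all genes rose with the replicate block from 113 to 796 for R4, 809 to 1519 for R10, 183 to 771 for R4A1, 16 to 664 for R10 against R4, 1 to 158 for R4A1 against R4, 83 to 600 for R4A1 against A1, 272 to 584 for 5-FU and 51 to 201 for R8 against R4. With only the groups compared R4 gave 42, R4A1 62, R4A1 against A1 20, organoid R4 1017 in place of 1542, colonoids with regorafenib 762 in place of 1500, tumoroids 1235 in place of 768, and tumoroids against colonoids in Ve 1 in place of 157. With no filter 5-FU gave 139, tumoroids with regorafenib 456 and tumoroids against colonoids in Ve 93. Without the M41 library in R4, 5-FU gave 493, tumoroids with regorafenib 1439, R8 against R4 130 and tumoroids against colonoids in Ve 727. The planned edgeR and DESeq2 tests were not run, since whole reads could not be recovered from the values to the tolerance required. The genotypes could not be blocked, since each line has 1 genotype. Low values are limited by depth, most in the M41 library in R4.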
